A study of Homo sapiens with 4 samples.

Results

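The genes described here are 54 interferon-stimulated genes, chosen by name among the 58825 genes of the deposited table. All 54 names were found, each in 1 row, and 48 reached a mean of at least 1 FPKM (fragments scaled to transcript length and to the library's total) in at least 1 group. They were measured by RNA sequencing in 4 libraries of HaCaT, an established human keratinocyte line that grows without a viral oncogene. Both groups were kept in MEPICF500 medium with 1.2 mM calcium, which drives keratinocytes to differentiate, and both received a lentivirus. The control cells carried a non-targeting short hairpin RNA (shNC) and the knockdown cells one aimed at lnc-DC, a long noncoding RNA (shlnc-DC), with 2 libraries per group called biological replicates. No library of cells without a lentivirus was analysed here, and it is not stated that replicates came from separately infected cultures. The p-values therefore cover the spread among the 4 libraries, which may be technical. In bulk RNA, fewer cells making a transcript and less transcript per cell cannot be told apart.

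Interferons are secreted proteins that cells release on sensing viral nucleic acid. Type I and type III interferons signal through JAK1 and TYK2 to the complex ISGF3, which holds STAT2 and IRF9. It binds the interferon-stimulated response element, found in promoters of some of the genes described here. Type II interferon acts chiefly at another sequence, the gamma-activated site. Epithelial cells such as keratinocytes keep a low level of many of these genes without added interferon, and the products block viral entry, translation or replication.

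The knockdown was visible in its target. The gene for lnc-DC is listed as WFDC21P (ENSG00000261040), at 2.15 and 2.76 FPKM in control and 0.09 and 0.29 FPKM in knockdown cells. On the log2(FPKM + 1) scale used for all differences it differed by -1.54 (SE 0.188), with a limma adjusted p = 0.0715, short of the threshold of 0.05. Each library listed 22351 to 22780 genes above 0, and across 12411 genes the replicates of a group had a Pearson r of 0.968 (control) and 0.971 (knockdown). Transcripts of the mitochondrial genome took 41.2% and 41.9% of all FPKM in control and 28.1% and 26.8% in knockdown libraries. With FPKM rescaled without them, 36 of the 48 measured members lay below 0 and 12 above, where 43.1% of all tested genes lay below 0.

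No interferon-stimulated gene passed the test over all genes, and those that differed most were lower in the knockdown. Those with the smallest p were TRIM22, a ubiquitin ligase that restricts viruses, OASL, an RNA-sensing helper, IRF1, a transcription factor, DDX60, a helicase of the sensing pathway, the membrane protein IFITM2 and the ubiquitin-like ISG15. Of the 48 measured members 0 had a limma adjusted p under 0.05; of 12411 tested genes, 0.137% passed as lower and 0.113% as higher. An unadjusted p under 0.05 with a lower level in the knockdown was found for 14 of 48 members (29.2%), where 8.00% of all tested genes met that rule. The same rule in the other direction was met by 0 of 48 members, where 14.8% of all tested genes met it. With each library centred on its median, 16 members were lower and 0 higher at that p, where the all-gene shares were 11.3% and 9.54%; under quantile normalization 16 were lower and 0 higher, where the shares were 11.4% and 10.8%. Of the 14, RSAD2 and EPSTI1 reached the filter only through the control group; among the 45 members at the minimum in both groups, 12 were lower at that p and 0 were higher. Setting aside 10 members that share exons on the same strand or at least 10% of their 50-base windows with another gene left 9 of 38 members lower at that p.

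Both knockdown values lay below both control values for 22 of the 48 measured members (45.8%), against 19.2% of all tested genes. Both lay above for 6 members (12.5%), against 35.6% of all tested genes. The remaining 20 members overlapped between groups. DHX58, RSAD2 and EPSTI1, among the 22, reached the filter only through the control group. Among the 45 members at the minimum in both groups, 19 lay below without overlap and 6 above. Of those 45, 30 had a difference below 0 and 15 above, with a median of -0.16. The median difference of the measured members was -0.17, while the median of all tested genes was 0.09. Of the 48 members 33 (68.8%) lay below 0 and 15 above, against 38.6% and 61.4% of all tested genes, and with each library centred on its median the split was 38 and 10, where 48.6% of all tested genes lay below 0. In the deposited FPKM of all 54 members, filter set aside, the knockdown mean was lower for 38, higher for 15 and equal for DDX58. Over all 58825 genes it was lower for 12240, higher for 14938 and equal for 31647. The members' FPKM summed to 1396 and 1434 in the control libraries and to 1058 and 1148 in the knockdown libraries. IFITM1 and the other IFITM genes carried most of that gap. Without those 3 genes the sums were 877 and 861 in control and 772 and 802 in knockdown libraries. The summed FPKM of all genes was also lower in both knockdown libraries than in both control libraries. The members took 0.437% and 0.424% of all FPKM in control and 0.390% and 0.417% in knockdown libraries. With transcripts of the mitochondrial genome set aside, they took 0.743% and 0.729% in control and 0.542% and 0.570% in knockdown libraries.

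**Figure D1:**
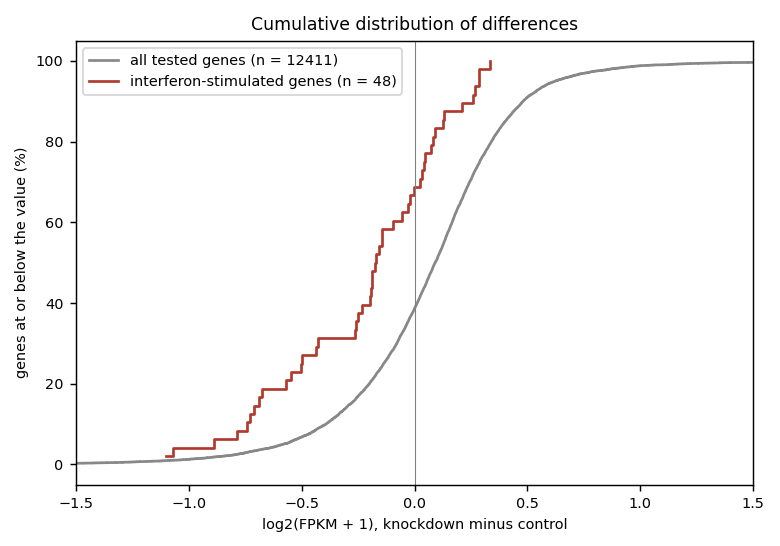
Cumulative share of genes (percent) against the difference in log2(FPKM + 1), knockdown minus control, for 12411 tested genes (grey) and 48 measured interferon-stimulated genes (red). The red curve runs to the left of the grey one, with medians of -0.17 and 0.09, and its highest member lies at 0.34.

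Promoters of some of these genes carry the interferon-stimulated response element, and windows are shown for members that were lower and for members whose groups overlapped. RefSeq promoter windows (GRCh38.p14), running from 250 bases before to 50 bases after a start site, were found for 43 of the 54 members. The response element was searched on both strands as GAAA, any 2 bases and GAAACT, and the gamma-activated site as TTCNNNGAA, which reads the same on both strands where N is any base, and matches of the 2 motifs may overlap. The element was in a window of 18 of 43 members (41.9%), against 0.273% of all 35116 promoter windows and 0.322% of the 27305 genes in that table. The gamma-activated site was in a window of 13 of 43 members (30.2%), against 7.66% of all windows and 9.38% of genes. A match is a description of the letters, not evidence of binding.

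The following windows come from members with an unadjusted p under 0.05 and a lower level in the knockdown. Capitals mark the response element, which appears as its reverse complement where it lies on the other strand, with up to 20 flanking bases in lower case before the start site.
IFITM1 chr11:313980-314031 (+ strand): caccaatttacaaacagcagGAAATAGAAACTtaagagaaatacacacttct
IFITM3 chr11:320864-320915 (- strand): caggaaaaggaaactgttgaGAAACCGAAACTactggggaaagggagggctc
DDX60 chr4:168318774-168318825 (- strand): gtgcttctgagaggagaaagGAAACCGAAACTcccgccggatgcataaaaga
ISG15 chr1:1013370-1013421 (+ strand): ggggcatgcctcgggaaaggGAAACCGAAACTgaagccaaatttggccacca
PARP9 chr3:122564312-122564363 (- strand): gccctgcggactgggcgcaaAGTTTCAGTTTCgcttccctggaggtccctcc
IFI44 chr1:78649749-78649800 (+ strand): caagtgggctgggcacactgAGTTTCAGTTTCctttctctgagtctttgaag
EPSTI1 chr13:42992260-42992311 (- strand): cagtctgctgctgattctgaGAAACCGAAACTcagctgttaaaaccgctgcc

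The same element stands in promoters of members for which the groups overlapped. These windows and those above were picked by how the genes differed, so they serve to show the letters only.
IFIT1 chr10:89392485-89392536 (+ strand): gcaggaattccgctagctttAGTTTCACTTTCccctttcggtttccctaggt
IFIT3 chr10:89327853-89327904 (+ strand): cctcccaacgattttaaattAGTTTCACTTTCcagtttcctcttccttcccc
IFIT5 chr10:89414501-89414552 (+ strand): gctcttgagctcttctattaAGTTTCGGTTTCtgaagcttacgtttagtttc
BST2 chr19:17405729-17405780 (- strand): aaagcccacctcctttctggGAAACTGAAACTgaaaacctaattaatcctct
IFI6 chr1:27672254-27672305 (- strand): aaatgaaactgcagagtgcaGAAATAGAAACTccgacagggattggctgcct
DDX60L chr4:168480511-168480562 (- strand): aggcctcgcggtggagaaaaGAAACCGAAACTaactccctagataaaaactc

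IRF1, which type II interferon induces strongly, had no response element of that form in its window. Its window held a gamma-activated site, in capitals, from 124 bases before the start site.
IRF1 chr5:132490869-132490917 (- strand): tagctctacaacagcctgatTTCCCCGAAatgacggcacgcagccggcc

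Among measured members with a promoter window, 15 had the response element and 23 did not. The median difference was -0.18 in the first group, with 7 of 15 lower at an unadjusted p under 0.05, and -0.14 in the second, with 3 of 23 lower. Over all tested genes 8.00% met that rule. By sign alone, 9 of 15 lay below 0 with the element and 16 of 23 without it. TRIM22, OASL, IFITM2 and GBP2, also lower at that p, had no promoter window and are in neither group. Differences spanned -1.10 to 0.21 with the element and -0.74 to 0.34 without it, so the ranges overlapped over most of their length. Members with a gamma-activated site had a median of -0.26 (n = 11) and those without it -0.05 (n = 27). These medians describe named lists and were not tested.

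**Figure D2:**
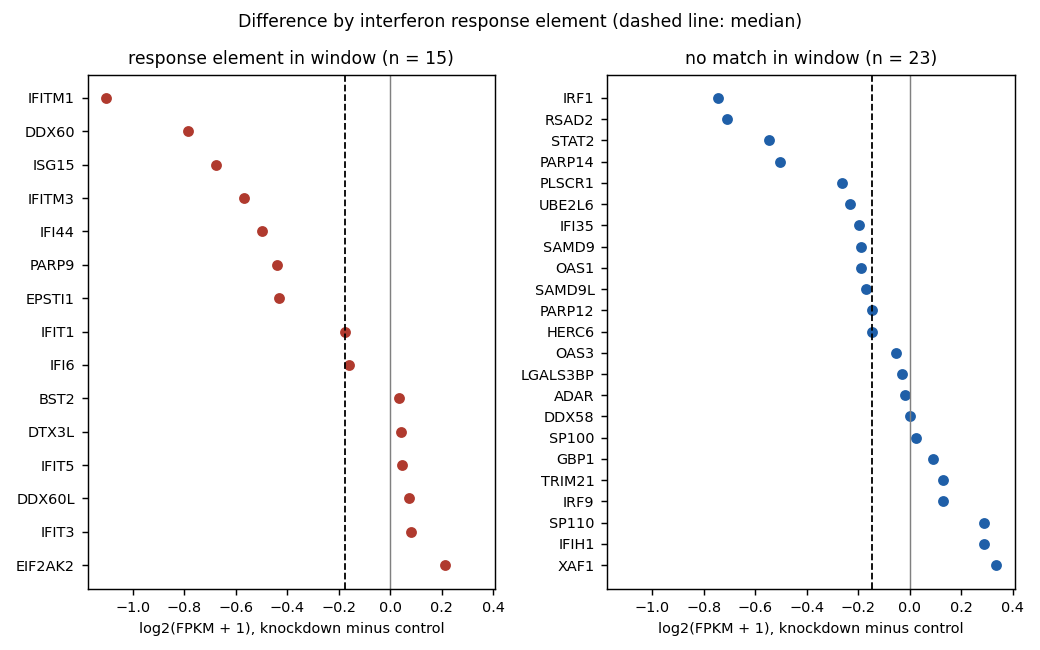
Difference in log2(FPKM + 1), knockdown minus control, for measured members with (left, n = 15) and without (right, n = 23) the response element in a promoter window; dashed lines are medians, at -0.18 and -0.14. IFITM1, DDX60 and ISG15 lie far to the left among members with the element, and BST2, IFIT5, IFIT3 and EIF2AK2 lie to the right of 0 in the same panel.

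Interferon genes themselves were nearly silent in the table. Of 22 interferon genes, 19 were listed at 0 in all 4 libraries, among them the keratinocyte interferon IFNK, IFNG and every type I alpha gene looked up. IFNB1, the interferon most cells release first, was listed at 0.08 FPKM in knockdown replicate 1 and at 0 in the other 3 libraries. IFNL1, a type III interferon, did not exceed 0.15 FPKM. IFNE, an epithelial interferon, stood at 0.93 and 0.07 FPKM in control and 0.85 and 0.51 FPKM in knockdown libraries. Such low entries do not show that the RNA was absent.

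All 6 receptor subunits were measured, and none passed over all genes. IFNAR2, the signalling subunit of the type I receptor, stood at 5.44 and 4.96 FPKM in control and 3.49 and 2.71 FPKM in knockdown libraries (difference -0.60, SE 0.148, limma adjusted p = 0.122). IL10RB, the shared subunit of the type III receptor, stood at 4.17 and 4.22 against 2.79 and 2.94 FPKM (difference -0.43, limma adjusted p = 0.142). For both subunits the knockdown values lay below the control values. Their partner subunits differed in another way. IFNAR1 overlapped between groups, at 5.55 and 5.62 FPKM in control and 6.80 and 5.24 FPKM in knockdown libraries (difference 0.08, SE 0.150, limma adjusted p = 0.766). IFNLR1 had knockdown values above control values, at 1.42 and 1.22 against 1.83 and 1.47 FPKM (difference 0.19, SE 0.157, limma adjusted p = 0.510). The type II receptor subunits had knockdown values above control values, at 34.2 and 34.6 against 35.3 and 38.5 FPKM for IFNGR1 and 8.96 and 8.54 against 10.6 and 10.6 FPKM for IFNGR2. Their differences were 0.10 (SE 0.106, limma adjusted p = 0.604) and 0.25 (SE 0.104, limma adjusted p = 0.247).

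Past the receptors, pathway genes differed in both directions. The kinase JAK1 was level, at 15.2 and 15.1 against 15.0 and 15.7 FPKM. TYK2, the kinase bound to IFNAR1, stood at 6.72 and 5.55 against 5.53 and 4.27 FPKM. Among genes that induce interferon, the kinase TBK1 had 6.35 and 6.21 FPKM in control and 10.2 and 9.81 FPKM in knockdown libraries (difference 0.59, SE 0.105, limma adjusted p = 0.0925). CGAS, the cytosolic DNA sensor, had 2.25 and 2.51 against 3.94 and 3.66 FPKM (difference 0.51, limma adjusted p = 0.124). IRF3, the factor that TBK1 activates, differed in the other direction, with 13.6 and 11.6 FPKM in control and 8.55 and 7.20 FPKM in knockdown libraries (difference -0.62, SE 0.144, limma adjusted p = 0.116). TRAFD1, a feedback inhibitor of the response, had 28.6 and 39.4 against 19.3 and 22.2 FPKM (difference -0.67, limma adjusted p = 0.147). Of 51 pathway genes looked at, 26 were measured; 0 passed over all genes, 4 were lower and 3 higher at an unadjusted p under 0.05 (8.00% and 14.8% of all tested genes), and their median was 0.04 (0.09 for all tested genes).

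**Figure D3:**
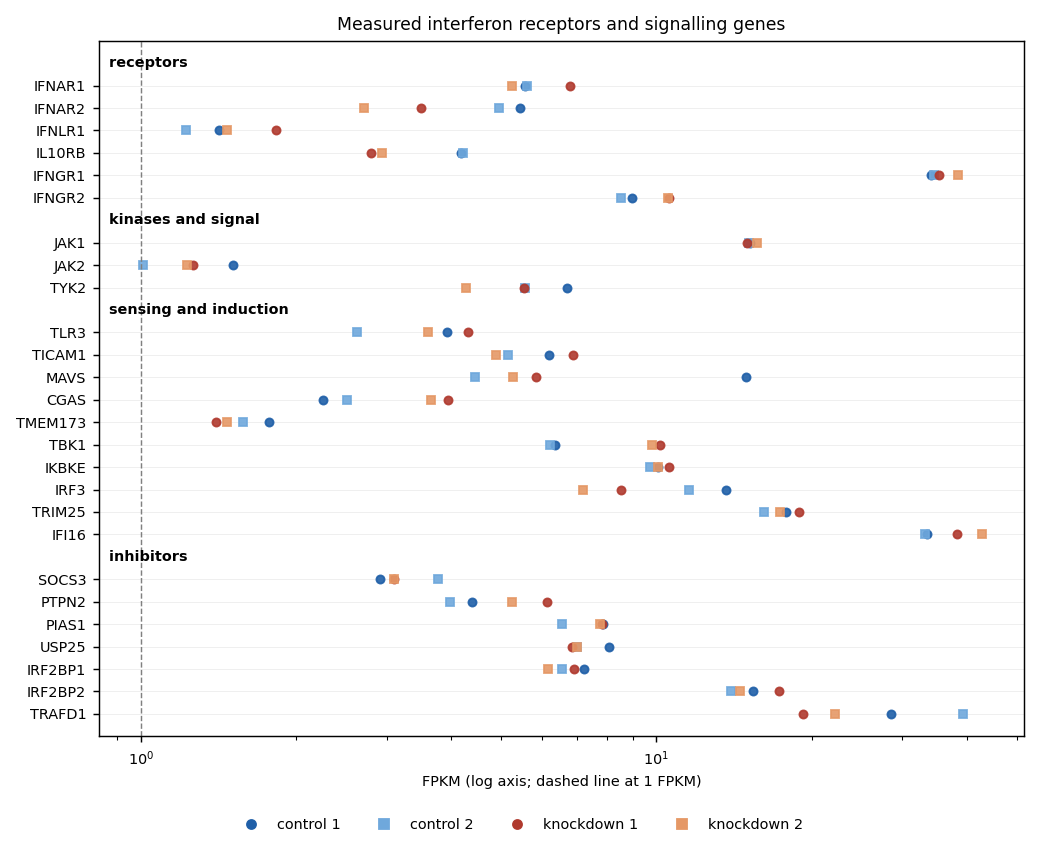
FPKM (log axis) of 26 measured interferon pathway genes that are not among the 54, in the 2 control (blue) and 2 knockdown (red and orange) libraries. IFNAR2, IL10RB and IRF3 have both knockdown points to the left of both control points, while TBK1 and CGAS have them to the right, and MAVS shows 1 control library at 14.9 apart from the other 3.

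The sensors were split. DDX60, a helicase that supports RNA sensing, stood at 13.1 and 11.2 FPKM in control and 6.25 and 6.99 FPKM in knockdown libraries, 1.84-fold lower (difference -0.79, SE 0.131, limma adjusted p = 0.0866). Its neighbour DDX60L, a close relative on chromosome 4, overlapped between groups at 1.36 and 0.89 against 1.33 and 1.12 FPKM. DDX58, which codes for the RNA sensor RIG-I, had a mean of 7.28 FPKM in both groups, and its values crossed (7.94 and 6.61 against 6.58 and 7.97). IFIH1, the sensor of long double-stranded RNA, was among the members with the largest positive difference, at 4.47 and 4.24 against 5.31 and 5.77 FPKM (difference 0.29, SE 0.115, limma adjusted p = 0.233). DHX58, a regulator of both sensors, stood at 1.29 and 1.16 against 0.78 and 0.94 FPKM, close to the 1 FPKM minimum, which it met only in control cells.

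Among the transcription factors, IRF1 was lower without overlap and the ISGF3 subunits were not uniformly so. IRF1 (ENSG00000125347), on chromosome 5, stood at 21.0 and 21.6 FPKM in control and 13.1 and 11.6 FPKM in knockdown libraries, 1.73-fold lower (difference -0.74, SE 0.112, limma adjusted p = 0.0785). STAT2 had 11.2 and 8.28 FPKM in control and 7.98 and 4.91 FPKM in knockdown libraries (difference -0.55, SE 0.257, limma adjusted p = 0.289). The groups did not overlap for STAT2, but the replicates of each group lay further apart than the nearest control and knockdown values. Its difference ranged from -0.24 without knockdown replicate 2 to -0.85 without knockdown replicate 1, and was -0.35 without control replicate 1. IRF9, the DNA-binding subunit, had 3.63 and 2.19 against 3.31 and 3.11 FPKM (difference 0.13, limma adjusted p = 0.740), and the sign turned to -0.14 without control replicate 2. All 50-base windows of the longest IRF9 transcript also occur in the overlapping gene AL136295.5, listed at 4.41 and 3.45 FPKM in control and 3.85 and 3.73 FPKM in knockdown libraries, so how reads were divided between the 2 genes is uncertain. IRF7, the amplifier of interferon production, overlapped between groups at 2.46 and 1.77 against 1.81 and 1.61 FPKM. IRF2, which competes with IRF1 for its sites, stood at 12.6 and 13.3 against 12.1 and 11.96 FPKM.

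ISG15, a ubiquitin-like protein that is attached to other proteins, was lower in the knockdown. None of the measured enzymes grouped with it had an unadjusted p under 0.05. UBE2L6 and HERC6 had knockdown values below control values, and USP18 had them above. ISG15 (ENSG00000187608) stood at 9.07 and 10.3 FPKM in control and 5.18 and 6.22 FPKM in knockdown libraries, 1.70-fold lower (difference -0.68, SE 0.138, limma adjusted p = 0.105). Its conjugating enzyme UBE2L6 was among the most abundant members, at 118 and 135 against 102 and 113 FPKM (difference -0.23). USP18, the protease that removes ISG15 and also dampens the type I receptor, stood at 4.96 and 6.03 against 6.79 and 6.80 FPKM (difference 0.27, SE 0.131, limma adjusted p = 0.304); 23.4% of its 50-base windows also occur in other genes, among them USP41. The ligase HERC5 did not exceed 0.31 FPKM, and its relative HERC6 stood at 2.46 and 2.25 against 1.93 and 2.14 FPKM. TRIM21, an antibody receptor of the cytosol, and DTX3L, a ligase, overlapped between groups.

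PARP9 and PARP14, enzymes of ADP-ribosylation, were lower without overlap. PARP9 stood at 10.01 and 10.4 FPKM in control and 6.89 and 7.67 FPKM in knockdown libraries (difference -0.44, SE 0.113, limma adjusted p = 0.130). DTX3L, the partner of PARP9, lies head to head with it on chromosome 3 and shares its promoter region, yet had 25.6 and 20.7 against 24.3 and 23.2 FPKM (difference 0.04). The response element in the PARP9 window printed above also falls at the DTX3L start site on the opposite strand, and exons of the 2 genes overlap, so reads there depend on strand. PARP14 had 17.1 and 13.4 against 10.6 and 10.2 FPKM (difference -0.50, SE 0.149, limma adjusted p = 0.155), and PARP12 overlapped at 4.01 and 3.50 against 3.59 and 3.01 FPKM.

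Of the RNA-binding effectors only OASL had an unadjusted p under 0.05. OASL (ENSG00000135114), chr12:121019111-121039242 in GENCODE 29 (GRCh38), stood at 26.1 and 28.5 FPKM in control and 14.2 and 14.3 FPKM in knockdown libraries, 1.91-fold lower (difference -0.89, SE 0.106, limma adjusted p = 0.0702). The gap between groups was far wider than the gap between replicates. Its catalytic relatives on chromosome 12, which make the messenger that activates RNase L, stood at 5.60 and 7.75 against 5.09 and 6.29 FPKM for OAS1, at 3.13 and 3.89 against 2.60 and 2.97 FPKM for OAS2, and at 27.9 and 25.4 against 26.1 and 25.1 FPKM for OAS3. Their differences were -0.19 (SE 0.190), -0.25 (SE 0.148) and -0.05 (SE 0.108).

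The IFIT genes, whose products bind foreign RNA ends, lie together on chromosome 10 and were not lower as a group. IFIT1 had 14.2 and 16.1 FPKM in control and 11.2 and 15.6 FPKM in knockdown libraries (difference -0.18, SE 0.184, limma adjusted p = 0.601), and without knockdown replicate 1 the sign turned, to 0.046. IFIT3, one of the most abundant members, had 97.8 and 94.9 against 92.9 and 112 FPKM, and IFIT5 had 14.7 and 15.7 against 14.9 and 16.6 FPKM. IFIT2 had knockdown values above control values, at 44.3 and 42.5 against 47.5 and 57.1 FPKM. It shares exons on the same strand with AL353751.1, which was listed at 1.63 and 13.5 FPKM in control and at 27.7 and 30.4 FPKM in knockdown libraries. EIF2AK2, which codes for the kinase PKR that stops translation, stood at 16.9 and 14.1 against 18.4 and 17.6 FPKM, and ADAR, the RNA editor that keeps PKR in check, overlapped at 25.1 and 28.9 against 31.7 and 22.3 FPKM.

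Of the 6 membrane effectors 4 were lower at an unadjusted p under 0.05, which 8.00% of all tested genes met. These were RSAD2, which passed the filter only through the control group, and the 3 IFITM genes, which share sequence. IFITM1 (ENSG00000185885), which blocks fusion of viruses at the cell surface, was the most abundant member in control cells, at 254 and 286 FPKM in control and 91.6 and 170.4 FPKM in knockdown libraries, 2.06-fold lower (difference -1.10, SE 0.315, limma adjusted p = 0.150). The knockdown replicates lay far apart, and both were below both controls. The difference was -0.66 without knockdown replicate 1 and -1.55 without knockdown replicate 2, and the unadjusted limma p was 0.0625 without control replicate 1 and 0.0930 without control replicate 2. IFITM3, which acts in endosomes, stood at 245 and 266 against 181 and 163 FPKM, 1.49-fold lower (difference -0.57, SE 0.126, limma adjusted p = 0.113). IFITM2 stood at 20.7 in both control libraries and at 13.5 and 11.6 FPKM in knockdown libraries (difference -0.69, SE 0.120, limma adjusted p = 0.0921). These 3 genes sit side by side on chromosome 11 and are near copies: 42.3% of the 50-base windows of IFITM1, 15.8% of IFITM2 and 20.3% of IFITM3 occur in other genes, and GENCODE 29 lets IFITM1 and IFITM2 share exons, so reads could move between them.

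RSAD2 codes for the antiviral enzyme viperin and reached 1 FPKM only in control cells. It stood at 1.54 and 1.48 FPKM in control and 0.48 and 0.59 FPKM in knockdown libraries, 2.82-fold lower (difference -0.71, SE 0.154, limma adjusted p = 0.111). CMPK2, its neighbour in the genome, was below the filter at 0.30 and 0.39 against 0.16 and 0.23 FPKM. PLSCR1, a scramblase, had 14.7 and 15.7 against 12.5 and 12.5 FPKM. BST2, or tetherin, which holds budding virions at the membrane, overlapped between groups at 43.9 and 54.03 against 47.7 and 52.2 FPKM.

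**Figure D4:**
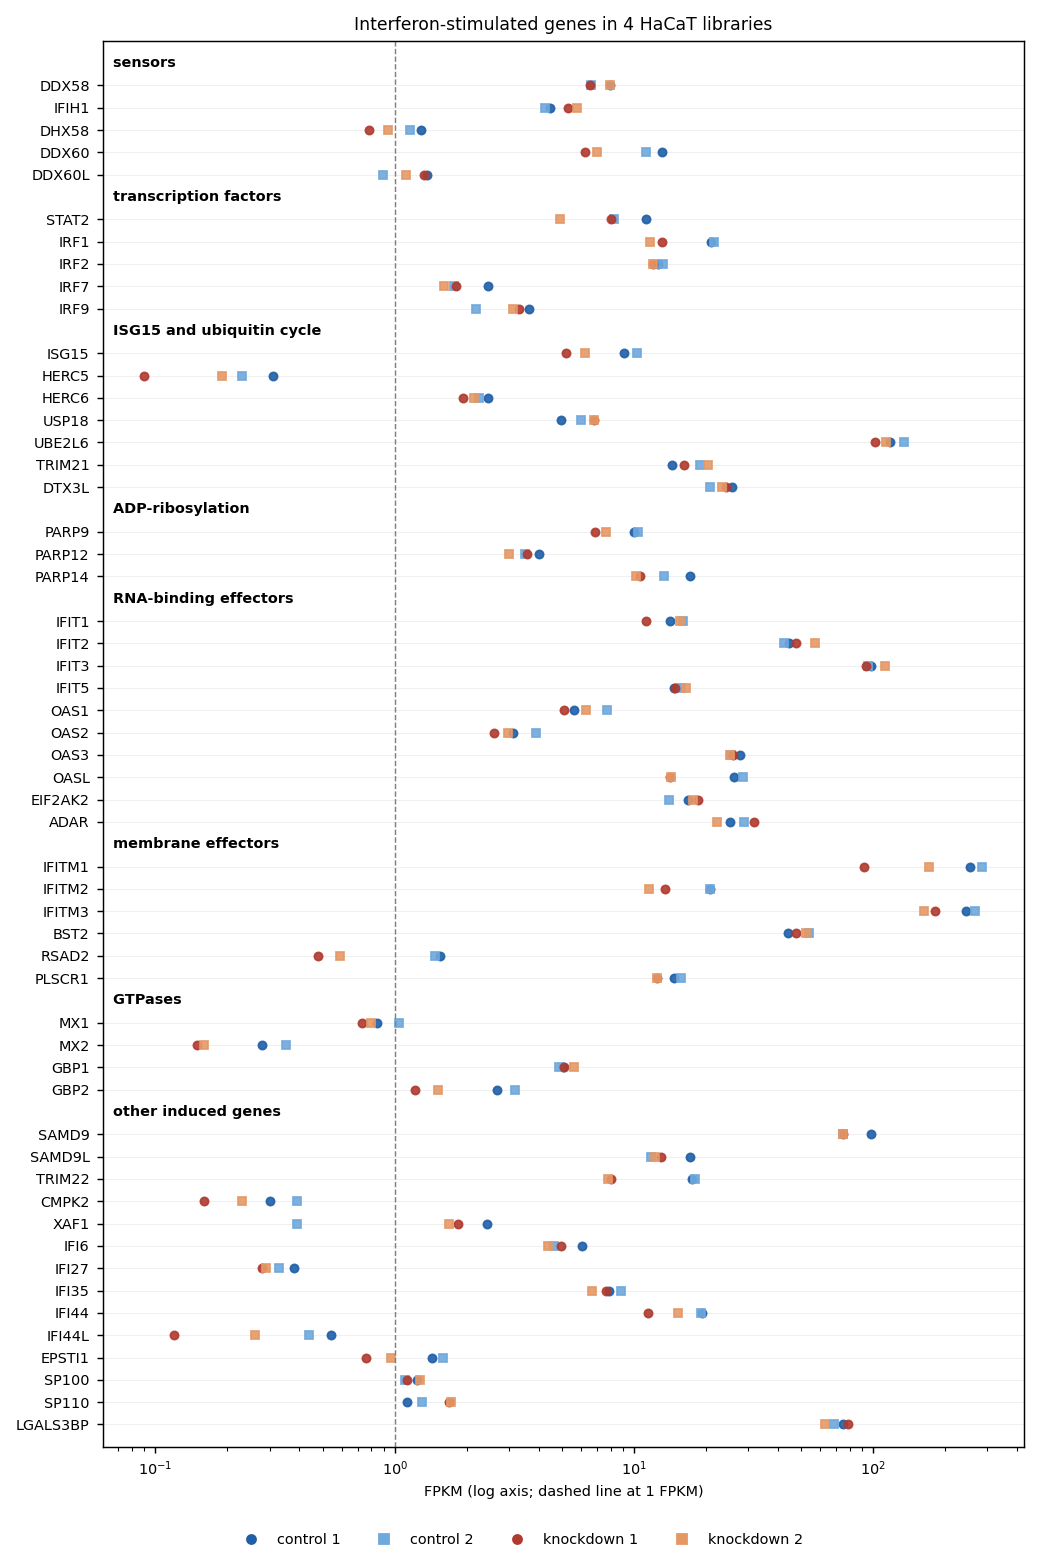
FPKM (log axis) of all 54 interferon-stimulated genes in the 2 control (blue) and 2 knockdown (red and orange) libraries, grouped by role; the dashed line marks 1 FPKM. TRIM22, OASL, IRF1, DDX60 and the IFITM genes show a gap between blue and red points, and for IFIT1, IFIT3, IFIT5, BST2 and ADAR the colours overlap.

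Of the dynamin-like GTPases and their relatives, GBP2 was lower. GBP2 stood at 2.67 and 3.18 FPKM in control and 1.22 and 1.52 FPKM in knockdown libraries, 2.14-fold lower (difference -0.73, SE 0.153, limma adjusted p = 0.109). GBP1, its close relative, stood at 5.06 and 4.86 against 5.11 and 5.59 FPKM; 13.3% of its 50-base windows occur in other genes. MX1, a classical marker of interferon action, lay just under the filter at 0.84 and 1.04 FPKM in control and 0.73 and 0.80 FPKM in knockdown libraries and was not tested. MX2 did not exceed 0.35 FPKM. Just inside the filter lay SP100 and DHX58, with higher group means of 1.21 and 1.23 FPKM.

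TRIM22 (ENSG00000132274) had the smallest p among the members. It lies at chr11:5689689-5737089 (GENCODE 29, GRCh38) and stood at 17.4 and 18.0 FPKM in control and 8.05 and 7.77 FPKM in knockdown libraries, 2.24-fold lower (difference -1.07, SE 0.103). The replicates of each group lay within 1 FPKM of each other and the groups about 10 FPKM apart. The limma adjusted p = 0.0546 missed the threshold; it was 0.0391 with a filter at 5 FPKM and 0.0402 under quantile normalization, within a range of 0.0391 to 0.255 over 13 alternatives. TRIM22 shares exons with OR56B1, which was listed at 0 in all 4 libraries.

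The other induced genes mostly lay slightly below 0. IFI44, a cytoplasmic protein, stood at 19.3 and 19.0 FPKM in control and 11.49 and 15.3 FPKM in knockdown libraries (difference -0.50), and EPSTI1 at 1.43 and 1.59 against 0.76 and 0.97 FPKM. SAMD9, which restricts poxviruses, was among the most abundant members, and control replicate 1 alone stood apart at 97.5 FPKM from 74.5 to 74.6 FPKM in the other 3 libraries. Its relative SAMD9L showed the same form, with 17.2 FPKM in control replicate 1 and 11.8 to 12.9 FPKM elsewhere. IFI6, a mitochondrial protein, and IFI35 differed by -0.16 and -0.20. LGALS3BP, a secreted glycoprotein, overlapped at 74.4 and 68.8 against 78.6 and 62.7 FPKM. IFI27 and IFI44L did not exceed 0.54 FPKM.

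SP110 and XAF1 were the remaining members with the largest positive differences. SP110, a nuclear body protein, stood at 1.13 and 1.3 FPKM in control and 1.68 and 1.72 FPKM in knockdown libraries (difference 0.29, SE 0.143, limma adjusted p = 0.309), while its relative SP100 overlapped between groups. XAF1, a promoter of cell death, stood at 2.44 and 0.39 FPKM in control and 1.84 and 1.68 FPKM in knockdown libraries (difference 0.34, SE 0.449, limma adjusted p = 0.683). The control values of XAF1 lay on either side of both knockdown values, and its difference was 0.99 without control replicate 1 and -0.32 without control replicate 2.

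**Figure D5:**
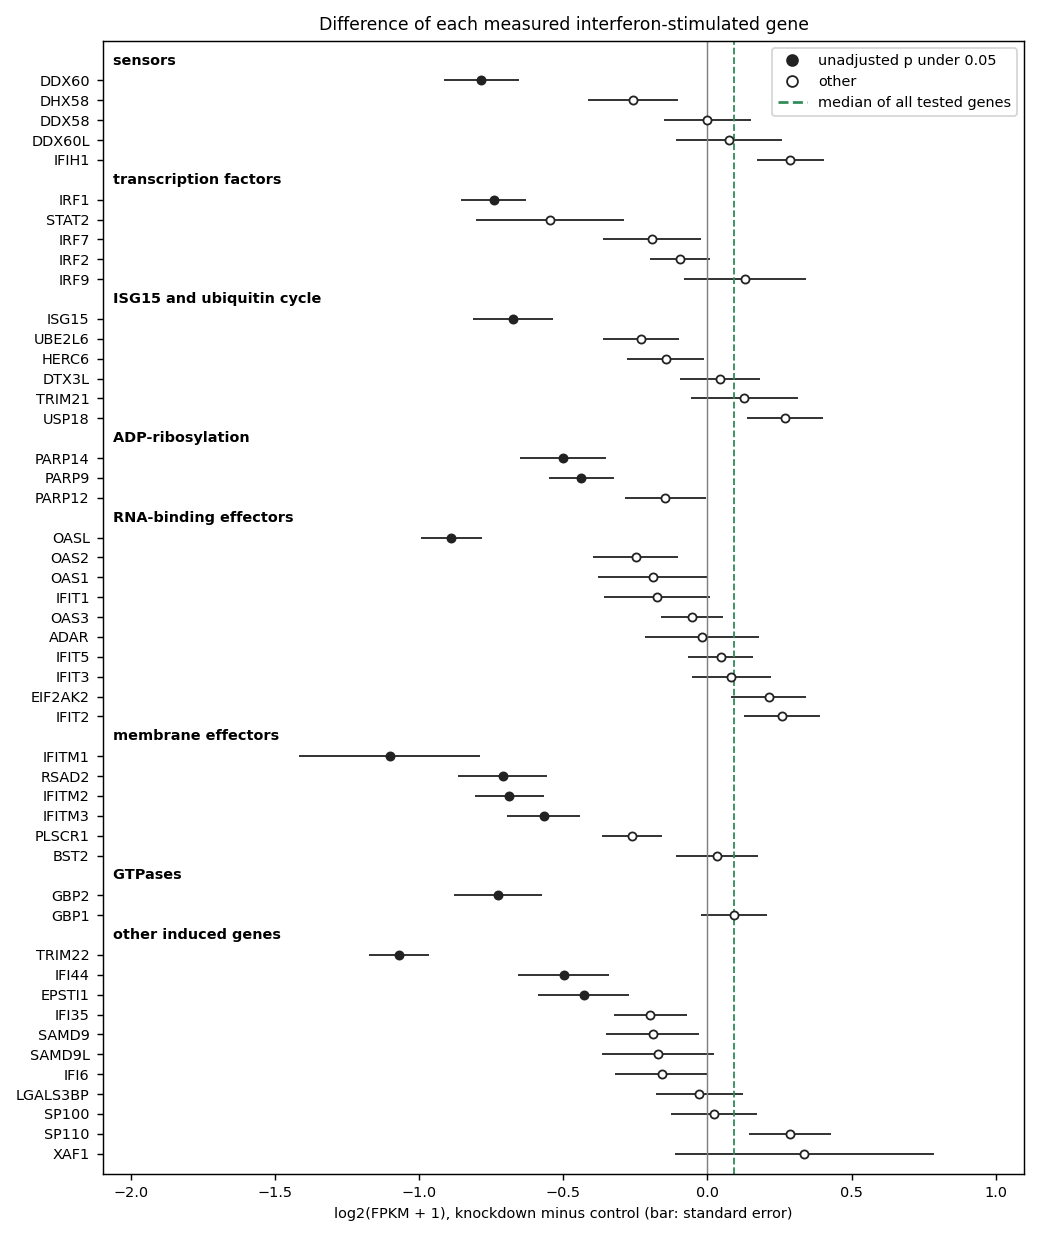
Difference in log2(FPKM + 1), knockdown minus control, with its standard error for 48 measured members by role; filled points have an unadjusted p under 0.05 and the dashed line is the median of all tested genes, 0.09. All 14 filled points lie below 0, from TRIM22 and IFITM1 near -1.1 to EPSTI1 at -0.43.

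Keratinocyte markers also differed between the groups. The 8 keratinocyte markers summed to 640 and 711 FPKM in control and 345 and 388 FPKM in knockdown libraries, with KRT5, KRT15, KRT6A and SFN lower in both knockdown libraries and TP63 and PERP overlapping. KRT14 did not exceed 0.35 FPKM and KRT17 did not exceed 0.85 FPKM. Their part in the interferon-stimulated genes was not tested. Most markers of cells that make or carry much interferon signal were below 1 FPKM. PTPRC of leukocytes and CLEC4C and LILRA4 of plasmacytoid dendritic cells were listed at 0 in all 4 libraries. The other plasmacytoid marker, IL3RA, stood at 0.15 and 0.02 FPKM in control and 0.53 and 0.17 FPKM in knockdown libraries. LAPTM5 of leukocytes stood at 0.41 and 0.29 against 0.68 and 0.93 FPKM. For both genes the knockdown values lay above the control values, under the filter. The 6 leukocyte markers summed to 13.7 and 14.0 FPKM in control and 14.6 and 14.6 FPKM in knockdown libraries, most of it from CD68, which many cell types express. CD14, a monocyte marker, stood at 3.00 and 1.53 FPKM in control and 1 and 1.3 FPKM in knockdown libraries. The melanocyte and fibroblast markers did not exceed 0.47 and 0.61 FPKM. Of the endothelial markers PECAM1 and VWF did not exceed 0.09 FPKM, while CDH5 stood at 4.51 and 3.52 FPKM in control and 3.88 and 6.42 FPKM in knockdown libraries.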

How the data were processed

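Per the labels' protocols, oligo(dT) selection from 5 µg of total RNA gave dUTP-marked libraries, read from both ends at 150 bases. Per the submitters' processing notes, the tools were HISAT2 2.0.4, StringTie 1.3.4d, cutadapt 1.9, edgeR and DESeq2, without their roles; the genome build and strand setting were not given in the sources used here. The authors deposited FPKM values with 2 decimals, scaled to library total and transcript length; how reads of overlapping genes were split is not shown. Beside them the authors' deposited table gives a fold (ratio) of group means and its log2, which lay within 0.05 of the recomputed log2 ratio for 12381 of 12388 tested genes. There were 0 FPKM columns without a sample. Read depth is unknown: for short genes with 1 transcript, at most 32.8% of values came within 0.1 of a whole read at any depth tried, so counts were not recovered.

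Genes averaging 1 FPKM or more in either group (12411) were tested as log2(FPKM + 1) by limma 3.58.1 (R 4.3.3; group as the only term, a variance trend, two-sided, Benjamini-Hochberg over all tested genes, threshold 0.05); the fit was tested on simulated data. Folds are ratios of mean FPKM, and differences on this scale understate changes of low genes. An exact permutation test of 2 against 2 libraries cannot go below 0.333. GENCODE 29 (GRCh38) gave exon overlaps and transcripts, and RefSeq (GRCh38.p14) gave promoters. Protein sequences were not used here, so the planned comparison of IFITM proteins was replaced by shared transcript windows. The members and lists were chosen with earlier results of these data known. The genes named by rule were the 12 members with the smallest p, the 4 with the largest difference the other way, 7 fixed members (ISG15, IRF1, IRF9, STAT2, OASL, MX1 and IFIT1), WFDC21P, the receptors and the 4 other pathway genes with the smallest p; AL353751.1 and AL136295.5 were named after their values were seen. Another gene of the pathway list is not reported here. Alternatives were another pseudocount (0.25), other filters and scalings, other variance models, a replicate block and leaving out each library.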

Additional observations from a re-analysis of the deposited data

How the results depend on the processing

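The 14 members with an unadjusted p under 0.05 kept their sign in each of the 13 alternatives that tested them. RSAD2, GBP2 and EPSTI1 were not tested with the filter at 5 FPKM. Most of these alternatives could not have turned those signs. For all 14, both knockdown values lay below both control values, so leaving out a library or changing the pseudocount could not. Filter, variance model and replicate block left the differences unchanged. Only median centring, quantile normalization and rescaling without mitochondrial transcripts could have turned a sign. Of the 48 measured members 30 kept their sign in every setting. The other 18 turned in at least 1 setting, most often BST2 (5 settings), DTX3L and SP100 (4 each). Members past the threshold numbered 0, except 1 (TRIM22) with a filter at 5 FPKM, where 35 members were tested, and 1 (TRIM22) under quantile normalization. Members lower at an unadjusted p under 0.05 numbered 12 to 16 across most alternatives that kept all 4 libraries. Over all tested genes, 5.54% to 11.4% met that rule in the same settings. With the replicate block 17 members were lower, where 10.4% of all tested genes were lower and 20.1% higher. When members that share exons or sequence were left out, 9 remained of 38, an alternative chosen after seeing the data. Members higher at an unadjusted p under 0.05 numbered 0 in every alternative that kept all 4 libraries. With any 1 library left out, fewer members than the 14 were lower at that p. The share of all tested genes that were lower at that p was then smaller too. XAF1 had a difference of 0.99 without control replicate 1. The members' median moved to -0.25 with median centring, against 0.01 for all genes. Over all tested genes, limma called 14 higher and 17 lower; this became 31 and 27 with the filter at 5 FPKM, 17 and 40 under quantile normalization, 8 and 9 without the trend, and 0 and 0 with no filter, with the replicate block and with any 1 library left out. Among genes named by rule, signs turned with each library left out in turn for IFIT1 (-0.40 to 0.046, the latter without knockdown replicate 1), IRF9 (-0.14 to 0.40, the former without control replicate 2), XAF1 (-0.32 to 0.99, the former without control replicate 2) and IFNAR1 (-0.078 to 0.24, the former without knockdown replicate 1). Under quantile normalization they turned, among the same genes, for IFNAR1 (-0.0026) and IFNGR1 (-0.027). In that setting 37 of 48 members lay below 0, where 46.9% of all tested genes did. The cause was not tested. The element searched without its last 2 bases was in a window of 67.4% of members, against 4.38% of genes and 3.57% of all windows. Same-numbered libraries deviated together at a correlation of 0.124 across 12411 genes, but with 2 pairs and no shared batch in the labels the numbers were not taken as pairs. Where 1 library of a group was left out, the lone library was assumed to vary like the others. Depth could not be read from FPKM, so low members such as MX1, HERC5 and IFI27 carry counting error of unknown size.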

Other observations

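The deposited table annotates genes with Gene Ontology terms, which gave a look at interferon genes outside the 54. The term for the type I interferon signaling pathway held 65 genes, of which 27 were members. Of the other 38, 20 were measured, and 0 passed over all genes by limma. At an unadjusted p under 0.05, 6 were lower and 1 higher (8.00% and 14.8% of all tested genes), and the median difference was -0.13. Among the 6 were IRF3 and IFNAR2, which were already counted with the pathway genes above. The lower ones included the MHC class I genes HLA-F, at 5.01 and 4.96 FPKM in control and 2.06 and 1.60 FPKM in knockdown libraries, and HLA-B, at 39.8 and 47.7 against 29.5 and 30.8 FPKM, whereas HLA-C overlapped between groups. HLA genes resemble each other closely, so the split of their reads is uncertain.

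A wider term, defense response to virus, held 194 genes, of which 36 were members, and its other genes lay near the shares of all tested genes. Of 95 measured, 65 lay above 0 and 30 below (61.4% and 38.6% of all tested genes), with a median of 0.15. At an unadjusted p under 0.05, 17 were higher and 6 lower (14.8% and 8.00% of all tested genes), and 0 passed over all genes by limma. Subunits of RNA polymerase III, which turns viral DNA into RNA for sensing, were among the higher ones: POLR3B stood at 7.26 and 7.07 FPKM in control and 11.0 and 11.8 FPKM in knockdown libraries, and POLR3A at 4.93 and 4.62 against 7.55 and 7.07 FPKM. RTP4, an interferon-induced gene that is not among the 54, stood at 9.25 and 12.7 against 6.77 and 6.08 FPKM. Other genes of the term went the other way. IFI16 stood at 33.4 and 33.25 against 38.3 and 42.9 FPKM, and GBP3 at 5.96 and 5.34 against 6.80 and 7.42 FPKM. These genes were named after their values were seen, and the 2 terms share genes with each other and with the pathway genes above.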
